A study of Mus musculus with 6 samples.

Results

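Beta-catenin is the transcriptional effector of canonical Wnt signalling, and 10 genes encode beta-catenin itself, the core of the complex that destroys it, and the DNA-binding factors through which it acts. They are Ctnnb1 (beta-catenin), Apc, Axin1 and Axin2 (scaffolds of the destruction complex), Gsk3b and Csnk1a1 (its kinases), and Tcf7, Lef1, Tcf7l1 and Tcf7l2 (the TCF/LEF transcription factors). They were taken by symbol, 10 of the 49585 gene identifiers in the count tables, and each matched a single identifier. Of the 10 genes, 8 passed the filter on low counts that left 13759 genes to test, and Lef1 and Tcf7l1 did not.

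RNA was sequenced from 6 tumoroid libraries, that is, from intestinal adenoma cells of C57BL/6 mice grown in Matrigel. The 3 knock-out libraries carried APC min/+; Villin-Cre; IKKa FL/FL, and the 3 wild-type libraries had APC min/+; Villin-Cre; IKKa +/+. All 6 therefore carried the Min mutation of Apc and Cre under the Villin promoter, which is active in intestinal epithelium, and differed by label in the floxed alleles of Chuk, the gene of the kinase IKKa. Every culture was kept in medium with R-spondin, a protein that strengthens Wnt signalling, and with Noggin, EGF, basic FGF and a ROCK inhibitor. The comparison shows how the level of each gene differed between tumoroids with floxed and with intact Chuk. By label the 3 libraries per genotype are biological replicates, with no statement of the number of mice or cultures behind them. The p-values therefore reflect the spread among the libraries at hand, part of which may be technical.

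Without a Wnt signal, Axin and Apc hold beta-catenin while the casein kinase and then the glycogen synthase kinase phosphorylate it, and the marked protein is ubiquitinated and degraded. With a Wnt signal, or when Apc is truncated as by the Min mutation, beta-catenin escapes, enters the nucleus and binds TCF/LEF factors on target genes. In the intestine this pathway maintains crypt stem cells, and loss of Apc function in it starts many adenomas. Axin2 is itself a target gene of the pathway and is widely read as a measure of its activity. Regulation of beta-catenin by the complex acts on the protein, which RNA counts do not measure.

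Chuk was at 28.9, 24.4 and 34.9 CPM (counts scaled to a common library size with the TMM method) in knock-out replicates 1 to 3 and at 101, 106 and 95.7 CPM in the wild type. It was 3.43-fold lower in the knock-out (log2 fold change -1.78, SE 0.12, adjusted p = 4.8e-07, edgeR quasi-likelihood test), and counts per gene cannot show whether the remaining reads cross the floxed exons. Depth was 20749747 to 31875723 counts per library, so 1 CPM stood for 20.7 to 31.7 counts. Xist had 6 counts over the knock-out libraries against 95406 over the wild-type ones, and the Y-linked gene Eif2s3y had 7164 against 0, so genotype and sex cannot be told apart in any comparison here. The 10 genes lie on autosomes. Mitochondrial genes took 2.15 to 3.46% of counts in the knock-out against 6.18 to 7.58% in the wild type, and their part in the results was not tested. Knock-out replicate 2 stood apart from the other knock-out libraries, with a chi-square of counts per degree of freedom of 39.9 and 40.5 against them, compared with 5.86 between those 2 and 12.9 to 21.3 between wild-type libraries.

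The epithelial label was checked against 8 markers. All 8 were detected, and they went both ways, with Krt8, Krt18 and Krt19 higher in the knock-out, Epcam, Vil1, Cldn7 and Cdx2 lower, and Cdh1 not called. Epcam was at 411 ± 12.9 CPM in the knock-out against 915 ± 30.6 CPM in the wild type (SD, n = 3 each). Cdx2, a transcription factor of intestinal identity, was at 20.6 ± 1.30 against 193 ± 10.6 CPM (SD, n = 3 each), 9.38-fold lower in the knock-out (edgeR adjusted p = 5.2e-10). The summed level, most of it from the keratins, was 10400 to 12200 CPM and 8140 to 8760 CPM. Among 8 T cell markers, Cd3e, Cd3d, Cd3g, Cd4 and Cd8a had no count in any library, and the summed level was 0.561 to 1.19 CPM in the knock-out against 0.705 to 1.84 CPM in the wild type. Among 6 fibroblast markers, Col3a1, Dcn and Lum had no count, and the sums were 0.452 to 0.884 and 0 to 0.339 CPM. Col1a1 was higher in the knock-out, on 59 counts against 2 (edgeR adjusted p = 0.0018). Col1a2 had 4 against 0, and Pdgfra went the other way with 0 against 13, both not tested. The 5 macrophage markers summed to 123 to 142 CPM in the knock-out against 38.3 to 46.6 CPM in the wild type, with 3 of them (Cd68, Csf1r and Cd14) higher in the knock-out and the defining marker Adgre1 at 0 in every library. Itgam went the other way, on 8 counts against 46, and was not tested. Most of either sum came from Cd14 alone, with means of 107 against 38.4 CPM. The 4 endothelial markers summed to 0.299 to 0.442 and 9.93 to 14.5 CPM, with Kdr at 0 in every library and Tek lower in the knock-out. The part of these marker differences in the results was not tested.

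Promoter sequences from RefSeq (GRCm38.p6) were matched for 7 of the 10 genes, and 4 windows of 250 bases before a RefSeq transcription start are shown. They belong to the member that rose, the 2 matched members that fell, and Gsk3b, whose window holds a TCF core motif. The Ctnnb1 window lies inside the GENCODE bounds of the gene given below, which begin further upstream than this RefSeq start. All are on the plus strand, 5′ to 3′, in lower case, and capitals mark the motif TCAAAG, searched on both strands.
Axin2, chr11:108920099-108920348: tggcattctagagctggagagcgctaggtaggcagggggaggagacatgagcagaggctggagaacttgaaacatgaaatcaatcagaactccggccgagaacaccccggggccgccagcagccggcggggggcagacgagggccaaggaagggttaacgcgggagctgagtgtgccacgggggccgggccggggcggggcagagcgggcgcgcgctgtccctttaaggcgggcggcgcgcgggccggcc
Ctnnb1, chr9:120933150-120933399: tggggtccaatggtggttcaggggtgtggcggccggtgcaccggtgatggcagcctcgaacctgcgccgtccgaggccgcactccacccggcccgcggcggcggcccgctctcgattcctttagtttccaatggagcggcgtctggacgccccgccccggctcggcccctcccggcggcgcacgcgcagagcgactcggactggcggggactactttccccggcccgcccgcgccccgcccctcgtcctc
Tcf7l2, chr19:55741560-55741809: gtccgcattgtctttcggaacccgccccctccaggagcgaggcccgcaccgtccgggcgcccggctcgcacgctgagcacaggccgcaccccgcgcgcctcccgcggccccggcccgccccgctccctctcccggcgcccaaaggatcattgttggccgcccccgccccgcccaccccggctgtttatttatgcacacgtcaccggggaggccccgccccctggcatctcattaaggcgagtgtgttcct
Gsk3b, chr16:38088751-38089000: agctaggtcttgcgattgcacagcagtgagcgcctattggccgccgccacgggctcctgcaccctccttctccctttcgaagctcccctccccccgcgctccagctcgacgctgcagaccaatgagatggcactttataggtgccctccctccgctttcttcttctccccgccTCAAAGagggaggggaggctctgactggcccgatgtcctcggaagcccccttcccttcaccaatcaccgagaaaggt
The motif stood 77 bases before the Gsk3b start and was not among the letters of the Axin2, Ctnnb1 and Tcf7l2 windows. Over 32851 windows of the same length in the RefSeq table, 13.8% held it. The longer ATCAAAG, which contains TCAAAG on the same strand, was in 3.21% of all windows and in none of the 13 windows of the 7 matched members. Of the 4 Lef1 windows, 1 (chr3:131156044-131156293, inside the gene) held TCAAAG, 180 and 120 bases before its start. A match or its absence describes these letters only and says nothing of binding.

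Between the genotypes, 4 of the 8 members tested passed the threshold (adjusted p under 0.05). This is 50%, against 56% of all 13759 genes, so members passed about as often as genes at large. Ctnnb1 rose, where 29.7% of all genes were higher, and Axin2, Tcf7l2 and Apc fell, where 26.3% of all genes were lower. Axin1, Gsk3b, Csnk1a1 and Tcf7 did not pass. The median log2 fold change of the 8 was -0.03, against 0 over all genes. Without knock-out replicate 2 the count was again 4, with 1 higher and 3 lower, where 59.2% of all genes were called.

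**Figure D1:**
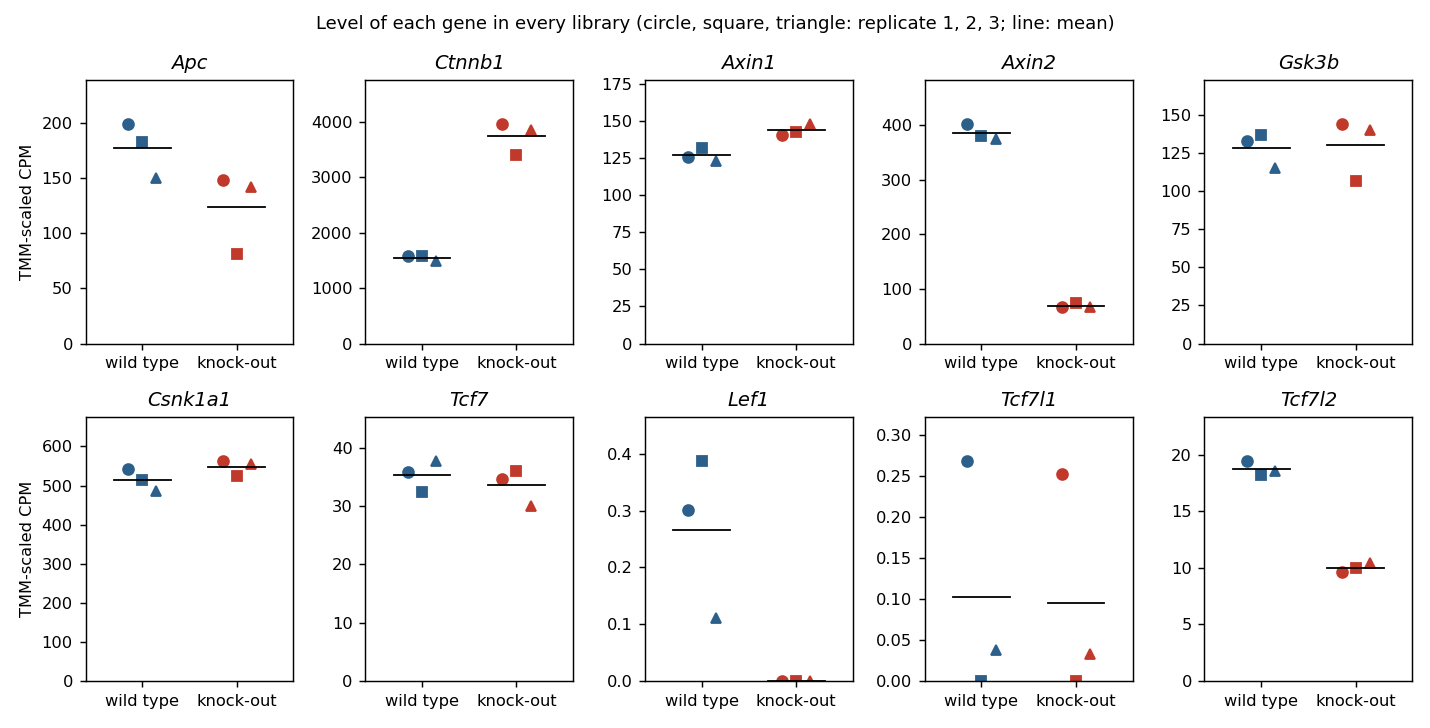
Level of each of the 10 genes in TMM-scaled CPM (vertical axis, starting at 0 and different for each gene) in the 3 wild-type (blue) and 3 knock-out (red) libraries, with the mean as a line and a marker shape for each replicate number. Ctnnb1 lies at 3393 CPM or more in every knock-out library and at 1585 CPM or less in every wild-type library, while Axin2 lies at no more than 74.1 CPM in the knock-out and no less than 375 CPM in the wild type.

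Ctnnb1 (ENSMUSG00000006932, chromosome 9, 120929216 to 120960507, plus strand, GRCm38) encodes beta-catenin, which also joins cadherins to the actin skeleton at cell junctions. It was at 3964, 3393 and 3855 CPM in knock-out replicates 1 to 3 and at 1582, 1585 and 1481 CPM in wild-type replicates 1 to 3. The groups did not overlap, as for 63.1% of all genes tested, and the lowest knock-out library was well above the highest wild-type one. The means were 3737 ± 303 and 1549 ± 59.2 CPM (SD, n = 3 each), a 2.41-fold higher level in the knock-out (log2 fold change 1.27, SE 0.08, edgeR adjusted p = 1.6e-07). By mean CPM, a scale on which long genes weigh more, Ctnnb1 ranked 7 among all tested genes in the knock-out against 28 in the wild type. In bulk libraries a difference in the share of cells and a difference in RNA per cell cannot be told apart. The Ctnnb1 exons overlap those of Ulk4 on the opposite strand over 759 bases, but Ulk4 had 437 counts over the knock-out libraries against 100 over the wild-type ones, far below Ctnnb1.

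Apc (ENSMUSG00000005871, chromosome 18, 34220924 to 34322552, plus strand) encodes the large scaffold that carries the Min mutation in every culture here, and counts per gene do not separate Min from normal transcripts. It was at 148, 80.8 and 142 CPM in the knock-out and at 199, 182 and 150 CPM in the wild type. The groups did not overlap, but the highest knock-out and the lowest wild-type library were nearly equal, and replicate 2 was well below the other knock-out libraries. The means were 124 ± 37.2 and 177 ± 25.1 CPM (SD, n = 3 each), 1.43-fold lower in the knock-out (log2 fold change -0.52, SE 0.19, edgeR adjusted p = 0.043). Without knock-out replicate 2 the log2 fold change was -0.31 and Apc still passed (edgeR adjusted p = 0.018), but it did not pass without wild-type replicate 1 (-0.43, adjusted p = 0.15) or wild-type replicate 2 (-0.50, adjusted p = 0.12).

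Apc has the longest transcript of the 10 genes, 12811 bases, and the libraries differed in how genes of that length were recovered. Among tested genes whose mean reached 5 CPM, 610 had a transcript over 8000 bases. For these, the median of log2(CPM + 0.5) minus the mean of the other libraries of the genotype was -0.41 in knock-out replicate 2, against 0.22 and 0.18 in replicates 1 and 3. Among the wild-type libraries it was -0.24 in replicate 3, against 0.14 and 0.11. For the 1971 such genes with a transcript of at most 2000 bases the order was turned, with 0.21 in knock-out replicate 2 and 0.13 in wild-type replicate 3. Apc deviated in the same direction as the long genes, by -0.84 in knock-out replicate 2 and by -0.35 in wild-type replicate 3. Gsk3b, the other member with a transcript over 8000 bases, deviated by -0.42 and -0.22 there. The part of transcript length in the Apc result was not tested.

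**Figure D2:**
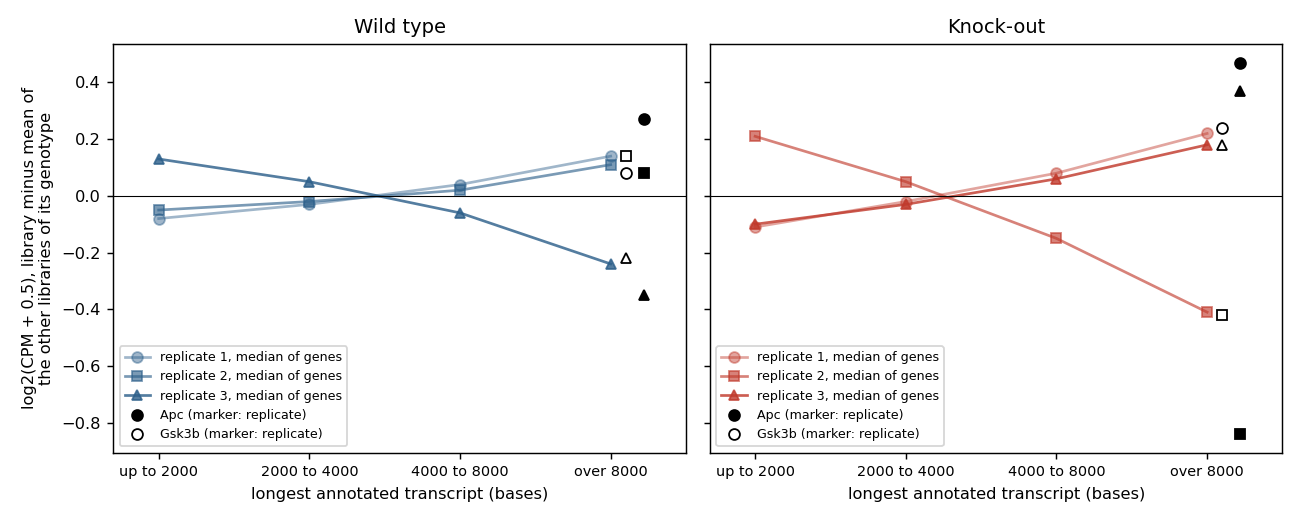
Deviation of each library from the mean of the other libraries of its genotype, in log2(CPM + 0.5) (vertical axis), for genes whose mean reached 5 CPM in 4 classes of longest transcript (horizontal axis), with the median over genes as lines and Apc and Gsk3b as filled and open black markers. Knock-out replicate 2 and wild-type replicate 3 fall to -0.41 and -0.24 for transcripts over 8000 bases, and Apc and Gsk3b lie below 0 in the same 2 libraries.

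The paired Axin scaffolds differed from each other. Axin2 (ENSMUSG00000000142, chromosome 11, 108920349 to 108950783, plus strand), the inducible Axin, was at 66.5, 74.1 and 67.4 CPM in the knock-out and at 403, 379 and 375 CPM in the wild type. Every knock-out library was far below every wild-type library. The means were 69.3 ± 4.13 and 386 ± 14.8 CPM (SD, n = 3 each), 5.56-fold lower in the knock-out (log2 fold change -2.48, SE 0.07, edgeR adjusted p = 1.2e-09). It had the largest absolute log2 fold change of the 8 members tested, and among all genes its p-value ranked 107. Axin1 (ENSMUSG00000024182, chromosome 17, 26138688 to 26195811, plus strand), the Axin that is made in most cells, was at 141, 143 and 148 CPM in the knock-out and at 126, 132 and 123 CPM in the wild type. The groups did not overlap, yet Axin1 did not pass (144 ± 3.81 against 127 ± 4.42 CPM, SD, n = 3 each, log2 fold change 0.18, SE 0.07, edgeR adjusted p = 0.05005). It lay so close to the threshold that it passed under 5 of 17 other ways of processing, with adjusted p from 0.04 to 0.17 over all of them.

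Per kilobase of exon, the ratio of the Axin2 level to the Axin1 level was 0.328, 0.361 and 0.316 in the knock-out against 2.23, 2.00 and 2.11 in the wild type. Axin2 was thus the higher of the pair in each wild-type library and the lower in each knock-out library. The summed level of both was 50.2 ± 1.15 CPM per kilobase in the knock-out against 103 ± 2.82 in the wild type (SD, n = 3 each), which is a description with no test.

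The kinases showed no difference past the threshold. Gsk3b (ENSMUSG00000022812, chromosome 16, 38089001 to 38246084, plus strand), which phosphorylates beta-catenin for destruction, was at 144, 106 and 140 CPM in the knock-out and at 133, 137 and 115 CPM in the wild type. The groups overlapped, with knock-out replicate 2 the lowest library of all (130 ± 20.8 against 128 ± 11.3 CPM, SD, n = 3 each, log2 fold change 0.02, 95% interval -0.24 to 0.29, edgeR adjusted p = 0.89). Csnk1a1 (ENSMUSG00000024576, chromosome 18, 61555274 to 61590061, plus strand), which adds the priming phosphate, was at 563, 525 and 556 CPM in the knock-out and at 541, 515 and 487 CPM in the wild type. These groups overlapped too (548 ± 20.3 against 514 ± 27.2 CPM, SD, n = 3 each, log2 fold change 0.09, 95% interval -0.06 to 0.25, edgeR adjusted p = 0.29). The Gsk3b interval allows a modest difference in either direction, and the Csnk1a1 interval a modest rise but only a slight fall.

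Of the TCF/LEF factors, which bind DNA through an HMG box and recruit beta-catenin or Groucho/TLE corepressors, Tcf7l2 passed and Tcf7 did not, and the others were too low to test. Tcf7l2 (ENSMUSG00000024985, chromosome 19, 55741820 to 55933654, plus strand) encodes TCF4, the TCF factor needed for intestinal crypts. It was at 9.66, 9.96 and 10.5 CPM in the knock-out and at 19.5, 18.2 and 18.6 CPM in the wild type. The libraries of each genotype lay close together and the groups were well apart. The means were 10.02 ± 0.402 and 18.7 ± 0.641 CPM (SD, n = 3 each), 1.87-fold lower in the knock-out (log2 fold change -0.90, SE 0.12, edgeR adjusted p = 9.8e-05). Chuk lies on the same chromosome, where the median log2 fold change over 380 genes whose mean reached 5 CPM was 0.00. The 5 tested genes on each side of Tcf7l2 were taken without that limit. Of these 10 neighbours, 6 were lower, 4 were not called and none was higher, with a median of -0.33. Among all genes tested, 26.3% were lower and 29.7% higher, which is 56% called. The part of the shared chromosome in the Tcf7l2 result was not tested.

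Tcf7 (ENSMUSG00000000782, chromosome 11, 52252371 to 52283014, minus strand) encodes TCF1, which is made in a long form that binds beta-catenin and in short forms that do not, and counts per gene do not separate them. It was at 34.7, 36.0 and 30.0 CPM in the knock-out and at 35.9, 32.3 and 37.7 CPM in the wild type. The groups overlapped (33.6 ± 3.16 against 35.3 ± 2.72 CPM, SD, n = 3 each, log2 fold change -0.07, 95% interval -0.31 to 0.17, edgeR adjusted p = 0.59). The interval of this difference leaves out a change of the size seen for Tcf7l2.

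The other two factors were near the limit of detection. Lef1 (ENSMUSG00000027985, chromosome 3, 131110471 to 131224356, plus strand), the factor most used in lymphoid and mesenchymal cells, had 0 counts in each knock-out library and 9, 8 and 3 counts in wild-type replicates 1 to 3. A floor of 3 counts over the pooled knock-out libraries lay 7.69-fold below the wild-type level, with the few wild-type counts taken as exact. This ratio was 4.97 without knock-out replicate 1 and 5.03 without knock-out replicate 3. Lef1 was not among the genes tested. In a fit with no filter on low counts its edgeR adjusted p was 0.014, on 20 counts over the wild-type libraries. That fit gave far smaller adjusted p-values for some genes, as for Apc (9.7e-06 against 0.043 in the main fit). Its p-values therefore cannot be set beside those of the main fit. Tcf7l1 (ENSMUSG00000055799, chromosome 6, 72626378 to 72789254, minus strand), the mainly repressive TCF3, had 8, 0 and 1 counts in the knock-out and the same 8, 0 and 1 counts in the wild type, and no difference was detectable at this depth (edgeR adjusted p = 0.96 with no filter). Among the T cell markers with counts, Lck had 33 over the knock-out libraries against 90 over the wild-type ones, Ptprc had 39 against 2 and Cd2 had 0 against 4. Their part in the Lef1 counts was not tested.

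**Figure D3:**
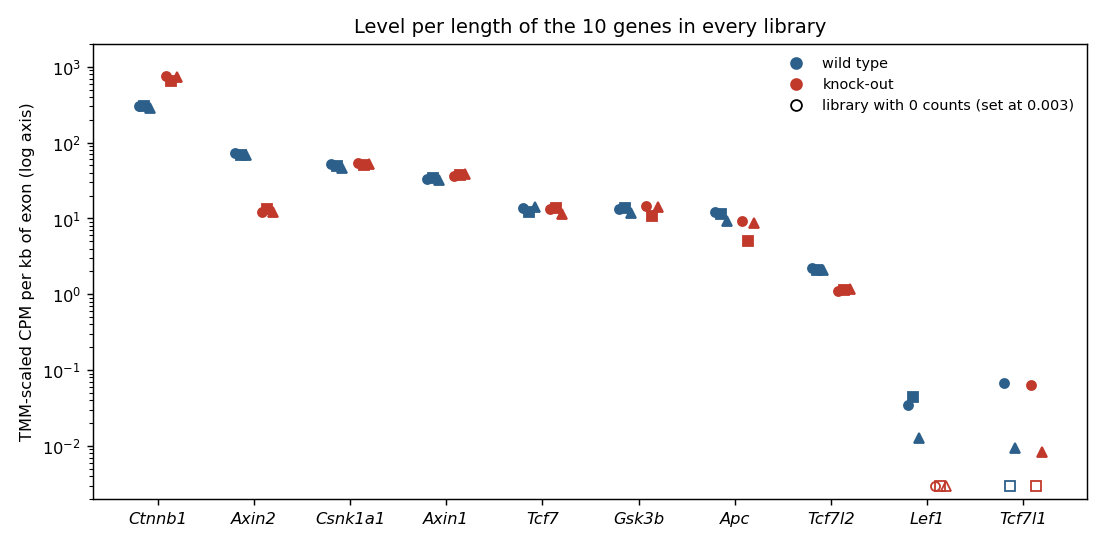
Level of the 10 genes per kilobase of annotated exon, in TMM-scaled CPM (logarithmic vertical axis), in each wild-type (blue) and knock-out (red) library, ordered by the wild-type mean, with open markers at 0.003 for libraries with 0 counts. Axin2 is the second highest gene in the wild type at 70.0 CPM per kilobase and falls to 12.6 in the knock-out, beside Gsk3b and Tcf7.

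Levels of different genes can be compared only per length, here per kilobase of the union of exons. In the wild type the order was Ctnnb1 (298 CPM per kilobase), Axin2 (70.0), Csnk1a1 (49.0), Axin1 (33.2), Tcf7 (13.5), Gsk3b (13.0), Apc (10.99) and Tcf7l2 (2.14). Neighbours in this order did not overlap between libraries, except Tcf7 with Gsk3b and Gsk3b with Apc. In the knock-out the order was Ctnnb1 (720 CPM per kilobase), Csnk1a1 (52.2), Axin1 (37.6), Gsk3b (13.3), Tcf7 (12.8), Axin2 (12.6), Apc (7.68) and Tcf7l2 (1.14), with overlap among Gsk3b, Tcf7 and Axin2. Lef1 and Tcf7l1 were at or below 0.0683 CPM per kilobase in every library. The place of Axin2 depends on the length used. With the longest transcript in place of the union of exons it ranked 3 in the wild type, after Csnk1a1, and 4 in the knock-out.

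As shares of the summed level per kilobase of the 4 TCF/LEF genes, Tcf7 made up 91.6 ± 0.969% in the knock-out against 86.0 ± 0.943% in the wild type (SD, n = 3 each). Tcf7l2 made up 8.24 ± 1.03% and 13.7 ± 0.786%. In no pair of libraries from different genotypes did the shares of either gene overlap, and no test was made of them. Lef1 reached 0.199 ± 0.115% in the wild type, with no count in the knock-out, and Tcf7l1 0.171 ± 0.242% and 0.161 ± 0.232%. With the longest transcript as length, the shares of Tcf7l2 were 16.6% in the knock-out against 26.0% in the wild type, and Tcf7 remained the most abundant of the 4 in every library.

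**Figure D4:**
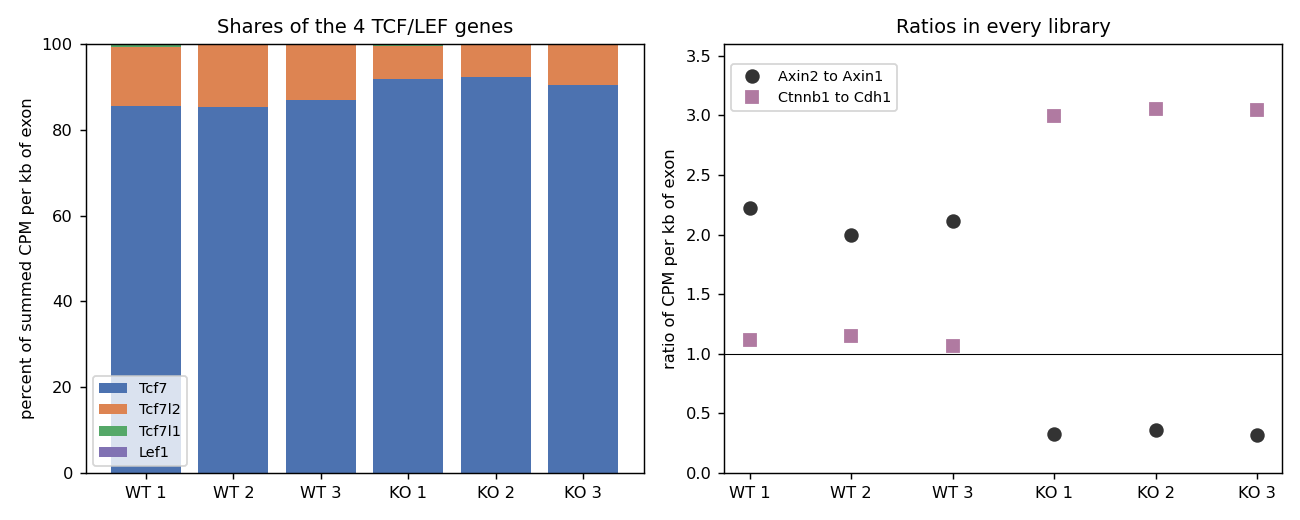
Left, each TCF/LEF gene as a percent of their summed CPM per kilobase of exon in the 3 wild-type (WT) and 3 knock-out (KO) libraries. Right, the ratios of Axin2 to Axin1 and of Ctnnb1 to Cdh1 per kilobase of exon in the same libraries, where Axin2 to Axin1 lies at 2.00 to 2.23 in the wild type and 0.316 to 0.361 in the knock-out.

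The other genes of the pathway were read from 4 lists, chosen with earlier results of these data known. Of 27 other genes of the destruction complex and of beta-catenin turnover, 25 were tested, 8 rose, 4 fell and 13 did not pass. This is 48%, against 56% of all genes, with a median log2 fold change of 0.07, and none of the 25 tested genes differed by 2-fold or more. Ppp2r5d, a regulatory subunit of the phosphatase PP2A, rose from 145 ± 6.37 to 221 ± 3.58 CPM (SD, n = 3 each, 1.53-fold, edgeR adjusted p = 2.4e-05). The casein kinase genes Csnk1e and Csnk1g1 rose 1.61-fold (edgeR adjusted p = 2.7e-05) and 1.74-fold (adjusted p = 9.4e-05). Skp1a, a subunit of the ubiquitin ligase that takes up phosphorylated beta-catenin, was 1.52-fold lower in the knock-out (edgeR adjusted p = 8.0e-05). Amer1, which binds Apc at the cell membrane and lies on chromosome X, was 1.62-fold lower (edgeR adjusted p = 0.0022). Usp7, a deubiquitinase, was 1.19-fold lower (edgeR adjusted p = 0.017), but did not pass without wild-type replicate 1 (adjusted p = 0.071) or wild-type replicate 2 (adjusted p = 0.051). Apc2 and Amer2 were not tested, with 33 counts over the knock-out libraries and 7 over the wild-type ones for Apc2, and 40 and 0 for Amer2.

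**Figure D5:**
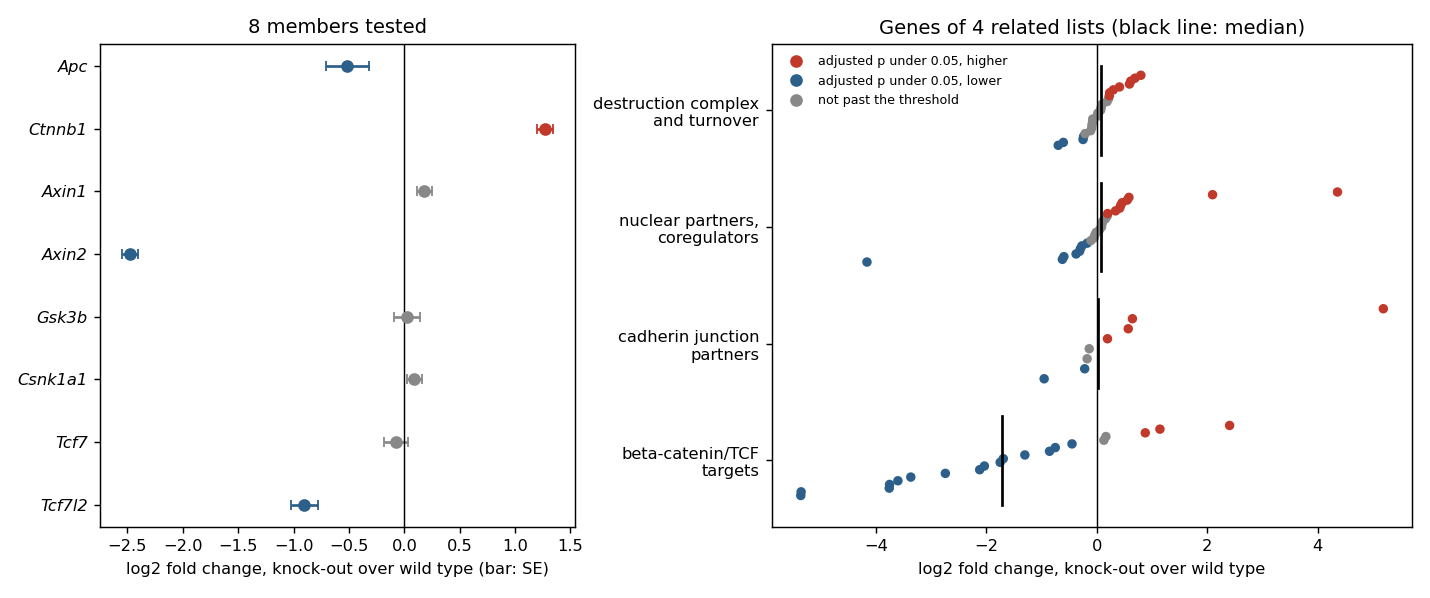
Left, log2 fold change of the 8 tested members, knock-out over wild type, with SE bars; right, log2 fold change of each tested gene of 4 related lists, with the median of each list as a black line (red: higher, blue: lower, grey: not past an adjusted p of 0.05). The median of the target list lies at -1.72 and those of the other 3 lists between 0.03 and 0.08.

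Of 28 nuclear partners and coregulators, 27 were tested, 9 rose, 8 fell and 10 did not pass, which is 63% called, against 56% of all genes, with a median log2 fold change of 0.08. The count of 17 dropped to 11 (7 higher, 4 lower) without wild-type replicate 2, where the share of all genes called dropped to 50.7%. Among the Groucho corepressors that occupy TCF factors in place of beta-catenin, Tle2 rose from 0.924 ± 0.472 to 19.8 ± 3.36 CPM (SD, n = 3 each, 20.5-fold, edgeR adjusted p = 4.2e-07). Tle3 rose 1.49-fold (edgeR adjusted p = 3.4e-05) and Tle6, a divergent member of the family, 4.27-fold (adjusted p = 7.1e-05), while Tle4 was 1.54-fold lower (adjusted p = 0.0010). Of the same family, Aes (Tle5) and Tle1 were named after their values were seen. Aes rose from 391 ± 33.2 to 572 ± 52.7 CPM (SD, n = 3 each, edgeR adjusted p = 3.4e-04), and Tle1 did not pass. Most of the tested family genes thus rose, while Tle4 fell. Aes, Tle2 and Tle6 lie close together on chromosome 10, between 81559488 and 81601073, and the part of this shared place was not tested. Tnik, a kinase that binds Tcf7l2 protein and phosphorylates it, fell from 12.4 ± 3.90 to 0.684 ± 0.0342 CPM (SD, n = 3 each, 17.9-fold, edgeR adjusted p = 4.8e-07), and the corepressor gene Ctbp2 was 1.51-fold lower (adjusted p = 8.8e-05). Pygo1 was not tested and had no count.

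Of 10 cadherin junction genes, 8 were tested, 4 rose, 2 fell and 2 did not pass, which is 75% called, against 56% of all genes, with a median log2 fold change of 0.03. With upper-quartile scaling the split was 3 higher and 4 lower, where 56.8% of all genes were called. Cdh3, which encodes P-cadherin, rose from 0.346 ± 0.332 to 11.7 ± 2.77 CPM (SD, n = 3 each, 36.4-fold, edgeR adjusted p = 2.9e-06). Jup, the gene of plakoglobin, a close relative of beta-catenin, rose 1.48-fold (edgeR adjusted p = 1.1e-04), and Vcl, the gene of vinculin, 1.56-fold (adjusted p = 1.2e-04). Ctnnal1 was 1.94-fold lower (edgeR adjusted p = 9.5e-06). Ctnnd1, the gene of p120-catenin, was 1.17-fold lower (edgeR adjusted p = 0.028) but did not pass with the replicate block (adjusted p = 0.073) or without knock-out replicate 1 (0.12) or 3 (0.099) or wild-type replicate 1 (0.083) or 3 (0.093). Cdh1, the gene of E-cadherin, which did not pass and was named after its values were seen, was at 1087 ± 97.2 and 1229 ± 14.2 CPM (SD, n = 3 each, edgeR adjusted p = 0.072). The ratio of Ctnnb1 to Cdh1 per kilobase of exon was 2.99, 3.05 and 3.04 in the knock-out against 1.12, 1.15 and 1.07 in the wild type.

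Of 24 target genes of beta-catenin and TCF in intestinal epithelium, 20 were tested, 3 rose, 15 fell and 2 did not pass, which is 90% called, against 56% of all genes. The median log2 fold change was -1.72, and 14 of those called differed by 2-fold or more, where 24.5% of all genes did. The list was chosen with earlier results of these data known, so these shares are a description and no independent support. The genes that fell included Kcne3, a potassium channel subunit, which was 10.3-fold lower in the knock-out (7.96 ± 0.704 against 82.3 ± 0.854 CPM, SD, n = 3 each, edgeR adjusted p = 9.7e-10). Tnfrsf19, a receptor of crypt stem cells, was 6.70-fold lower (edgeR adjusted p = 5.2e-09), and Lgr5, the R-spondin receptor that marks those cells, was 40.9-fold lower (1.52 ± 0.787 against 61.2 ± 6.98 CPM, SD, n = 3 each, adjusted p = 2.5e-08). The 3 that rose were Ccnd1, the gene of cyclin D1, from 915 ± 23.3 to 2018 ± 32.1 CPM (SD, n = 3 each, 2.21-fold, edgeR adjusted p = 7.2e-08), Cd44, a hyaluronan receptor, 1.83-fold (adjusted p = 1.4e-05), and Notum, a secreted Wnt inhibitor, 5.29-fold (adjusted p = 1.8e-04). Myc and Znrf3 did not pass and were named after their values were seen, with Myc at 302 ± 27.2 and 277 ± 23.9 CPM (SD, n = 3 each). Without knock-out replicate 2 the calls in the 4 lists were 10 higher and 5 lower for the destruction complex, 8 and 8 for the nuclear partners, 5 and 3 for the junction genes and 3 and 15 for the targets. In that setting 59.2% of all genes were called, in place of 56%.

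The genes with the pattern most like that of Axin2 were taken by Pearson r of log2(CPM + 0.5) over the 6 libraries among the 10374 tested genes whose mean reached 5 CPM, as a description. They were Gulp1 and Naip5 (r = 0.9999 each) and Shisa2 (r = 0.9998), and 481 genes had an r of 0.99 or more. Such an r over 6 libraries in 2 groups mostly reflects a fall in the knock-out that is large against the spread between libraries. Naip5 was at 0.668 ± 0.136 CPM in the knock-out against 39.6 ± 2.70 CPM in the wild type (SD, n = 3 each), and Gulp1 and Shisa2 were at 26.6 ± 1.90 and 27.3 ± 1.98 CPM in the wild type and at 0.0374 ± 0.0648 CPM each in the knock-out.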

How the data were processed

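The study measured gene expression in 3 knock-out and 3 wild-type tumoroid libraries by polyA-selected, stranded RNA-seq, per the labels' protocols. The submitters' processing notes name STAR and GRCm38. For their versions, the counting program and its strand setting, the sources used here give nothing. The authors deposited unnormalized integer counts for each Ensembl gene. Symbols, coordinates and lengths came from GENCODE mouse M21, which named 49326 of 49585 identifiers.

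Counts were tested with the quasi-likelihood test of edgeR 4.0.16 (R 4.3.3) with TMM scaling, a term for genotype alone, filterByExpr (minimum count 10, minimum total 15) and Benjamini-Hochberg adjustment over 13759 genes, with a threshold of 0.05. CPM are TMM-scaled, and fold changes are fitted. The default edgeR fit was used, with its newer fit as an alternative. The script was tested on simulated data, where few genes were changed (127 calls, 9 of them false). It recovered 4 of 50 genes changed 1.25-fold, 26 of 49 changed 1.5-fold, 39 of 48 changed 2-fold and 49 of 49 changed 4-fold. Small differences can be missed in such a setting. In the data 7711 genes were called, which makes the Benjamini-Hochberg cut-off on the p-value less strict. The recovery rates therefore do not give the share of changes found in the data. Alternatives were other scalings, filters and tests (DESeq2 1.42.0, limma 3.58.1), a replicate term, a threshold of 0.01 and leaving out each library. The newer edgeR fit and leaving out chromosomes X, Y and 5 and mitochondrial genes were added after seeing the data.

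The members and the 4 lists were chosen with earlier results of these data known. Named genes are the members, Chuk, up to 3 genes per list and direction with the smallest adjusted p, and the 3 genes most like Axin2. Of the list symbols, Tle5 matched no identifier and is present under its older symbol Aes. Lef1 and Tcf7l1 were described by counts. Permuting 3 against 3 libraries cannot give an exact p below 0.1, so shares and ratios were not tested.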

Additional observations from a re-analysis of the deposited data

How the results depend on the processing

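Ctnnb1 (log2 fold change 1.21 to 1.31), Axin2 (-2.55 to -2.45) and Tcf7l2 (-0.96 to -0.88) kept their direction and passed under all 17 alternatives. Apc ranged from -0.67 to -0.31 (adjusted p from 9.7e-06 with no filter to 0.15 without wild-type replicate 1) and was lost in 3. Gsk3b, never called, changed sign with upper-quartile scaling (-0.0352) and without knock-out replicate 1 (-0.0542), knock-out replicate 3 (-0.0317) or wild-type replicate 3 (-0.0469), with 0.1231 as the highest value on leaving out a library. Tcf7, never called, ranged from -0.1549 to 0.0023 on leaving out a library, positive without knock-out replicate 3. At an adjusted p of 0.01, where 44.7% of all genes were called, the destruction complex list had 6 calls and the nuclear partners 11. The nuclear partners also had 11 without wild-type replicate 2, where 50.7% of all genes were called. Leaving out single libraries gave 8 to 15 calls in the destruction complex list, 11 to 16 in the nuclear partners and 3 to 4 among the members. The share of all genes called then ranged from 48.3 to 59.2%. With the longest transcript as length the shares were 83.2% (knock-out) and 73.5% (wild type) for Tcf7, 16.6% and 26.0% for Tcf7l2, and 0.383% for Lef1 in the wild type. With a replicate block 7042 genes were called in place of 7711, and the block changed no member's call. Deviations of libraries with equal replicate numbers correlated at 0.108, -0.11 and -0.19. These values cannot show whether the libraries were paired, and the labels do not say. Over all alternatives 6144 (at an adjusted p of 0.01) to 8561 (without knock-out replicate 2) genes were called. Upper-quartile scaling moved the median of all genes by -0.05. Of 407 values for 24 other genes, 398 kept direction and call and 9 lost the call. Depth limits Lef1 and Tcf7l1, with 20 and 18 counts in all 6 libraries.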

Other observations

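The 5 tested genes on each side of each called member were also read. Over all genes tested, 29.7% were higher and 26.3% lower, which is 56% called. Around Ctnnb1, 5 of 10 neighbours were higher in the knock-out, 3 lower and 2 not called, with a median log2 fold change of 0.31. Single neighbours varied widely, from -6.57 to 9.23 around Ctnnb1. Around Axin2, 1 was higher, 3 were lower and 6 not called, with a median of -0.03. Around Tcf7l2, none was higher, 6 were lower and 4 not called, with a median of -0.33, and around Apc 4 were higher, 4 lower and 2 not called, with a median of -0.22. The Apc pseudogene Apc-ps1 on chromosome 5 had 25 counts in the knock-out against 9 in the wild type, compared with 2160 to 5943 in each library for Apc. The antisense gene Gm15401, which overlaps Tcf7l1 over 179 bases, had 11 and 20 counts, where Tcf7l1 had 9 and 9, and without the strand setting of the counting their reads cannot be told apart.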
